A study of Arabidopsis thaliana with 8 samples.

Results

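Expansins and xyloglucan endotransglucosylase/hydrolases (XTHs) are secreted proteins that act on the wall of growing plant cells. Expansins loosen the contacts between cellulose and the matrix polymers without cutting them, and alpha-expansins do so most strongly in an acid wall. XTHs cut xyloglucan, the main hemicellulose of the Arabidopsis primary wall, and join the cut end to another chain, and some of them hydrolyse it instead. Both families are large, and single members are known for particular tissues, such as growing root hairs. The probe sets described here were chosen by name: a probe set was taken where its 1 annotated gene has a symbol of the EXPA, EXPB, EXLA, EXLB or XTH series, with TCH4 and the older ATEXP and ATXTH forms allowed. This gave 27 of the 22746 probe sets of the array, of which 10 are alpha-expansins (EXPA), 4 beta-expansins (EXPB), 4 expansin-like genes (3 EXLA and 1 EXLB) and 9 XTHs. RefSeq lists 67 genes with such names. The other genes were not named by the annotation used here, which gives 1 gene for 13513 probe sets, so the 27 are not the whole of either family. The 2 probe sets that stand for several expansin genes and the 2 whose gene has such a name only as a synonym were left out.

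The arrays were Affymetrix ATH1 arrays, hybridized with RNA of whole *Arabidopsis thaliana* Col-0 seedlings, with many plants pooled in each shaken flask of liquid medium under constant light. FN seedlings grew in full nutrition medium with 3 mM sulfate, which was renewed on day 7. The seedlings of the other conditions grew in medium with 150 µM sulfate for 7 days and were then moved to sulfate-free medium for 48 h (-S). By the study's list of media, this last medium also held far less nitrate and ammonium than the other 2 media, and 30' S and 3 h S plants stayed in it. Part of these flasks then received 500 µM sulfate and was harvested after 30 min (30' S) or 3 h (3 h S). All plants were about 9 days old, and each of the 4 conditions has 1 array in each of 2 experiments, which the study treats as biological replicates, so n = 2. Arrays are named here by condition and experiment. FN seedlings never saw the low-sulfate or the sulfate-free medium, so that the lack of sulfate and the low supply of nitrogen cannot be told apart in values over FN. The resupplied flasks were opened for the addition, and this handling cannot be told apart from the sulfate in values over -S. The RNA came from whole seedlings, in which fewer cells of a type and less RNA per cell cannot be told apart.

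Values are MAS 5.0 signals, the intensity of a probe set on a linear scale. Their 2% trimmed mean was 99.4 on each array. A floor of 10.9 to 20.3, set for each array from its share of absent detection calls, marks the level under which a signal is not well above background. The median signal of the arrays was 41.9 to 47.6. The FN array of experiment 1 stood apart, with a median correlation of 0.902 with the other arrays, against 0.938 to 0.962 for the rest. Of the seedlings' tissues, the root was represented by *PYK10*, a root beta-glucosidase, with signals of 2701.2 to 3693.9 on all arrays. The leaf, root hair and endodermis lists had no gene named by the annotation other than *EXPA7* and *EXPA18*. As a stand-in for green tissue, 7 nuclear photosystem genes chosen after the annotation was seen gave a summed signal of 11456.1 and 8347.3 in FN in experiments 1 and 2, 4624.6 and 7760.0 in -S, 4469.5 and 6606.3 in 30' S, and 4121.0 and 6378.8 in 3 h S. All 7 had a lower signal in -S than in FN in both experiments, and none was at 0. The share of all probe sets that were lower in both was not counted. None of the 7 passed the limma test described below in -S over FN (adjusted p of 0.179 to 0.279). In experiment 2 some differences were small, as for *LHCB4.1*, with 1862.1 in FN and 1839.2 in -S. The sum of -S over that of FN was 0.404 in experiment 1 and 0.93 in experiment 2.

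Of the 27 members, 24 reached the floor on at least 2 arrays and were tested, and 17 were at or above it on all 8. *EXPA21*, *EXPA24* and *XTH29* stayed under the floor on all arrays, with signals up to 1.7, 3.9 and 8.6, and are not considered further. *EXPA21* and *EXPA24* lie near each other on chromosome 5, with 4 genes between them. *EXLA1* and *EXLA3* are direct neighbours on chromosome 3, and *XTH18* and *XTH19* are direct neighbours on chromosome 4. The members of a pair are compared below.

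No member passed an adjusted p of 0.05 in any of the 5 comparisons (limma on log2(signal + 16) over all 17138 probe sets tested, with the experiment as a block). The background was 1.42% of all probe sets in -S over FN, 0.00583% in 30' S over -S, 1.06% in 3 h S over -S, 0.56% in 3 h S over FN and 0.548% in 3 h S over 30' S. Among 24 genes, shares of that size correspond to less than 1 gene, so that 0 calls do not set the members apart. At an unadjusted p under 0.05, limma gave 8 of 24 members in -S over FN (21.1% of all probe sets), 2 in 30' S over -S (2.97%), 3 in 3 h S over -S (13.8%), 8 in 3 h S over FN (18.6%) and 3 in 3 h S over 30' S (14.3%). The methods' test, run on the same values, gave 0 members at an unadjusted p under 0.05 in each comparison, where 3.1, 1.47, 4.12, 2.21 and 4.2% of all probe sets passed in the same order. These shares, too, correspond to about 1 of 24 genes or fewer. The values below are therefore descriptions of 2 experiments, each with its standard error (SE) and 95% interval, and no member is said to have risen or fallen.

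Over the members as a group, the median log2 value lay near 0 in each comparison. It was 0.01 in -S over FN (0.05 over all probe sets tested), 0.04 in 30' S over -S (-0.01), 0.05 in 3 h S over -S (-0.03), 0.05 in 3 h S over FN (0.04) and 0.00 in 3 h S over 30' S (-0.02). In -S over FN, 12 of the 24 lay above 0 and 12 below. The group held genes with opposite values, which are described below by family.

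**Figure D1:**
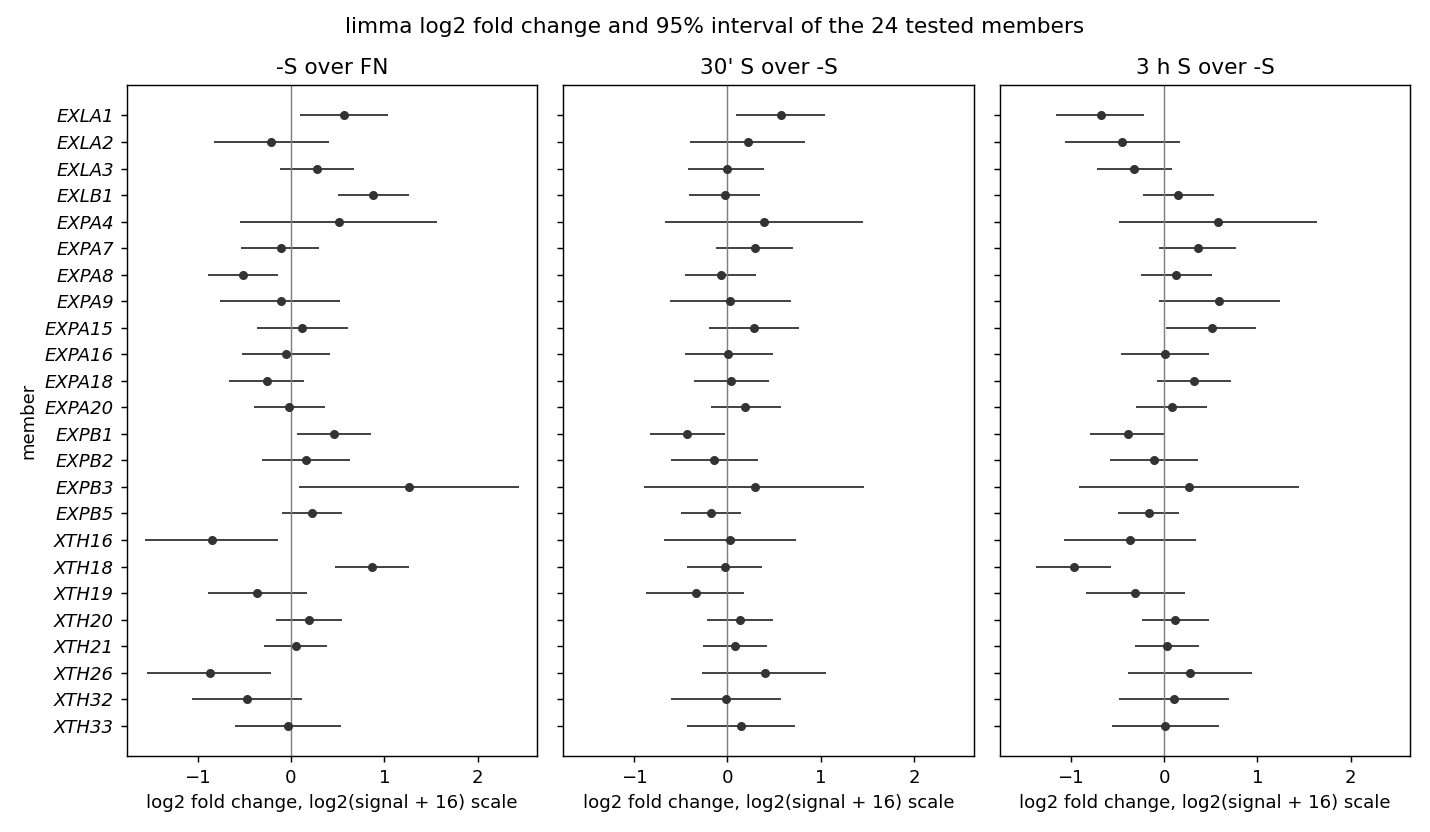
Log2 fold change of each of the 24 tested members (points) with its 95% interval (lines), on the log2(signal + 16) scale from limma, in 3 comparisons with n = 2 arrays per condition. In -S over FN the values run from -0.87 (*XTH26*) to 1.26 (*EXPB3*), and in 30' S over -S all lie between -0.43 and 0.57.

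The XTHs included the member closest to the threshold. *XTH18* (AT4G30280), a root-expressed XTH, had signals of 166.9 in FN, 355.7 in -S, 282.4 in 30' S and 150.8 in 3 h S in experiment 1. In experiment 2 the signals were 160.2, 274.8, 333.1 and 153.4 in the same order. The signal was thus high in -S and 30' S and low in FN and 3 h S, with no overlap between these pairs of conditions, and both 3 h S arrays lay below all other arrays. Its log2 value was 0.87 (SE 0.17, 95% interval 0.47 to 1.27, limma adjusted p = 0.0666) in -S over FN. In 30' S over -S it was -0.03 (SE 0.17), with a ratio of 0.794 in experiment 1 and 1.21 in experiment 2. In 3 h S over -S it was -0.97 (SE 0.17, 95% interval -1.37 to -0.57, limma adjusted p = 0.0562), and in 3 h S over 30' S it was -0.94 (SE 0.17, limma adjusted p = 0.0784). The value of 3 h S over FN was -0.09 (SE 0.17, 95% interval -0.50 to 0.31), so that the 3 h S signals lay close to those of the fed seedlings.

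The FN arrays bear on the p-values of all comparisons through the shared estimate of the spread, and the fits without one of them called more probe sets. In values over FN, a fit without 1 FN array leaves FN with 1 array, so that no spread within FN enters it. For single members in these comparisons, only the log2 values of such fits are given. The resupply comparisons kept 2 arrays in both conditions. Without either FN array in turn, 6.97% of all probe sets passed in 3 h S over -S and 7.58% in 3 h S over 30' S. With only the compared conditions in the fit, these shares were 6.23% and 7.2%. A call of a member in such a fit, given below, is to be read against these shares. The log2 value of a resupply comparison cannot change in these fits, since both of its conditions keep their 2 arrays. Only the adjusted p is therefore given. The 1 FN array left is fitted exactly, so leaving out the one or the other gives the same resupply fit. In 3 h S over -S the limma adjusted p of *XTH18* was 0.00975 without either FN array and 0.0151 with the compared conditions alone. The adjusted p in 3 h S over 30' S was 0.0134 and 0.00618. In -S over FN the value of *XTH18* was 0.88 when only experiment 2 supplied FN, and 0.86 when only experiment 1 did.

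*XTH19* (AT4G30290), the direct neighbour of *XTH18* and also known from roots, differed from it. Its signals in FN, -S, 30' S and 3 h S were 322.0, 197.2, 133.9 and 154.5 in experiment 1. In experiment 2 they were 256.7, 247.1, 216.3 and 199.0. Both FN arrays lay above all others, by a narrow margin over -S in experiment 2. The log2 value was -0.36 (SE 0.22, limma adjusted p = 0.383) in -S over FN and -0.67 (SE 0.22, 95% interval -1.19 to -0.14, limma adjusted p = 0.202) in 3 h S over FN. The latter was -0.30 when only experiment 2 supplied FN, and -1.03 when only experiment 1 did.

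*XTH16* (AT3G23730) had the lowest value of all members in 3 h S over FN. Its signals in FN, -S, 30' S and 3 h S were 373.7, 138.2, 131.0 and 91.5 in experiment 1, and 249.3, 190.3, 208.1 and 162.0 in experiment 2. Both FN arrays lay above all others. The log2 value was -0.85 (SE 0.30, 95% interval -1.56 to -0.14, limma adjusted p = 0.185) in -S over FN and -1.22 (SE 0.30, 95% interval -1.92 to -0.51, limma adjusted p = 0.131) in 3 h S over FN. The ratio of -S over FN was 0.370 in experiment 1 and 0.763 in experiment 2. The photosystem sum, given above, was also much lower in -S than in FN in experiment 1 and little lower in experiment 2, and its part in the values of *XTH16* and *XTH19* was not tested. Without the FN array of experiment 1, the value of *XTH16* was -0.28 in -S over FN and -0.65 in 3 h S over FN. Without that of experiment 2 it was -1.42 and -1.79. The size of its difference from FN thus depended on which FN array was used.

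*XTH32* (AT2G36870), of the XTH group in which hydrolases occur, showed the same split more sharply. Its signals in FN, -S, 30' S and 3 h S were 155.9, 70.6, 79.3 and 82.5 in experiment 1, but 171.1, 178.4, 155.1 and 183.6 in experiment 2. The ratio of -S over FN was 0.453 in experiment 1 and 1.04 in experiment 2, and the fit gave -0.47 (SE 0.25, limma adjusted p = 0.319).

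*XTH26* (AT4G28850), expressed in root hair cells, was the only member under 0.5-fold in both experiments in -S over FN, where 1.59% of all probe sets were past 2-fold or under 0.5-fold in both, in either direction. It was a weak signal. In FN it reached 20.6 in experiment 1, close to the floor of 20.3, and 24.0 in experiment 2, with a floor of 11.7. In -S it stood at 2.7 and 7.3, under the floor in both experiments. FN was at least 1.4-fold higher, counted against the floor (limma adjusted p = 0.166). The log2 value of the fit was -0.87. With the FN array of experiment 1 left out it was -0.50, and with that of experiment 2 left out -1.25. After resupply the experiments parted, with 2.3 and 1.2 in 30' S and 3 h S in experiment 1 and 25.4 and 21.3 in experiment 2.

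The other XTHs gave weak signals and values near 0 in -S over FN. *XTH20* had signals of 21.3 to 41.7, *XTH21*, a root XTH, 21.8 to 55.4, and *XTH33*, which is anchored in the plasma membrane, 25.5 to 47.1. Their values of -S over FN were 0.19 (SE 0.15), 0.05 (SE 0.14) and -0.03 (SE 0.24). For *XTH21* the 95% interval of that value ran from -0.29 to 0.39, and for *XTH33* from -0.60 to 0.54. *XTH21* was near 2-fold higher in experiment 2 than in experiment 1 in each condition, with ratios of 1.89 to 2.54.

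**Figure D2:**
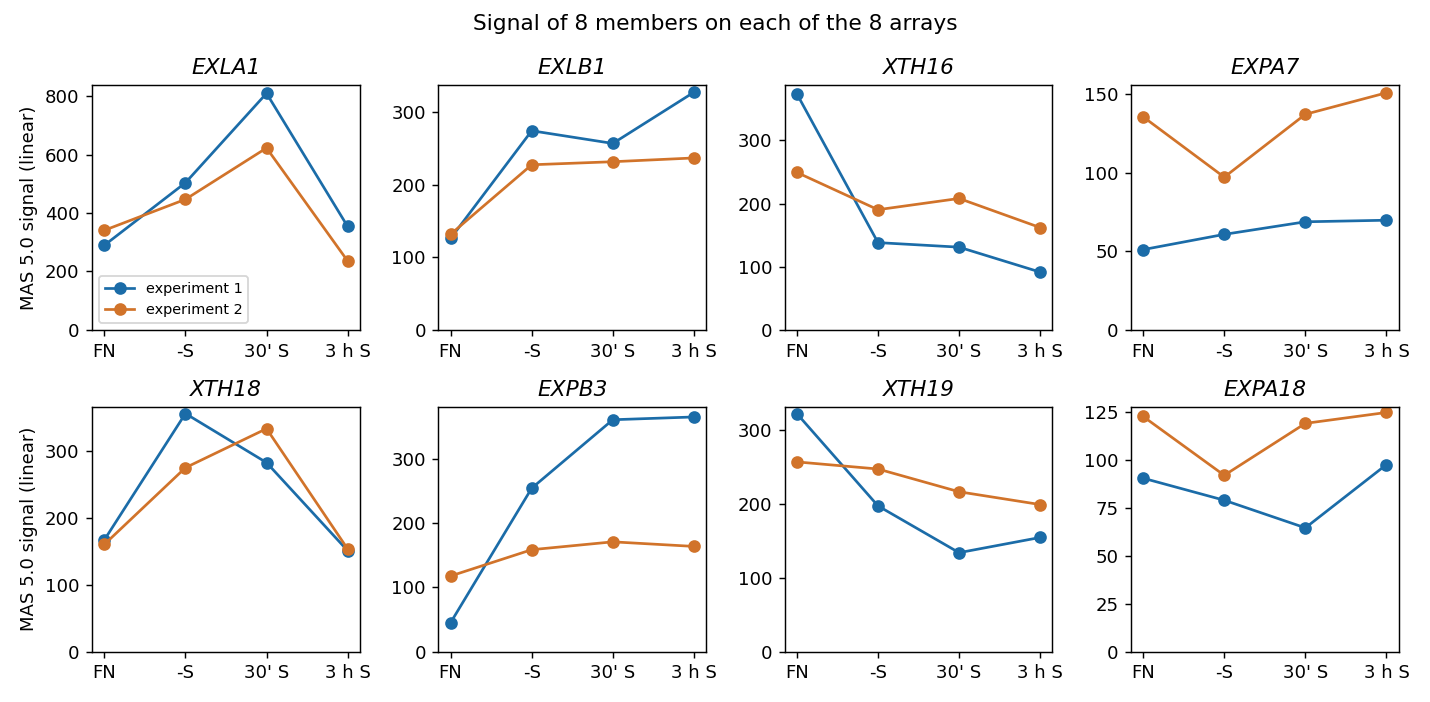
MAS 5.0 signal (linear, axes from 0) of 8 members by condition, with 1 point per array and a line for each experiment. *XTH18* and *EXLA1* are high in -S and 30' S and low in FN and 3 h S, *EXLB1* and *EXPB3* are lowest in FN, *XTH16* and *XTH19* are highest in FN, and the signals of the root hair gene *EXPA7* are all higher in experiment 2 than in experiment 1.

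Among the expansin-like genes, *EXLA1* (AT3G45970) had the largest difference between the resupply times. The EXLA proteins share the fold of expansins, and no wall-loosening activity is established for them. The signals of *EXLA1* in FN, -S, 30' S and 3 h S were 289.8, 503.8, 810.0 and 354.1 in experiment 1, and 341.0, 447.0, 622.9 and 236.0 in experiment 2. In both experiments the signal was highest at 30' S, next in -S, and lower in FN and 3 h S. Its log2 value was 0.57 (SE 0.20, 95% interval 0.10 to 1.04, limma adjusted p = 0.185) in -S over FN and again 0.57 (SE 0.20, limma adjusted p = 0.999) in 30' S over -S. It was -1.25 (SE 0.20, 95% interval -1.72 to -0.78, limma adjusted p = 0.0587) in 3 h S over 30' S. The ratio of 3 h S over 30' S was 0.437 in experiment 1 and 0.379 in experiment 2, which made *EXLA1* the only member past the fold rule there (0.98% of all probe sets).

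The fit with only the 30' S and 3 h S arrays gave an adjusted p of 0.00145 for *EXLA1* in 3 h S over 30' S (7.2% of all probe sets passed there), and the fit without either FN array 0.00245 (7.58%). Quantile normalization gave a log2 value of -1.31 (adjusted p = 0.0455), with 0.788% of all probe sets past the limit. In 3 h S over -S the value was -0.68 (SE 0.20, 95% interval -1.16 to -0.21, limma adjusted p = 0.203), with an adjusted p of 0.024 without either FN array (6.97%) and of 0.0396 with the compared conditions alone (6.23%). No member was past the fold rule in 30' S over -S (0.106% of all probe sets), 3 h S over -S (1.09%) or 3 h S over FN (1.2%).

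The neighbour of *EXLA1*, *EXLA3* (AT3G45960), gave weak signals of 23.4 and 12.2 in -S and 22.1 and 12.6 in 30' S, against 11.2 and 11.8 in FN and 11.9 and 9.6 in 3 h S. As for *EXLA1*, -S and 30' S lay above FN and 3 h S, but in experiment 2 by a small margin, and both 3 h S arrays were under the floor. In experiment 2 the -S array was under its floor as well, so that no fold is given (limma adjusted p = 0.479 in 3 h S over -S). *EXLA2* (AT4G38400) had signals of 49.0, 26.2, 33.5 and 11.8 in experiment 1 and 34.9, 42.8, 51.8 and 32.1 in experiment 2. Here FN and -S stood in opposite order in the experiments, while 3 h S was the lowest condition in both. Its value of 3 h S over 30' S was -0.66 (SE 0.26, limma adjusted p = 0.319). Without either FN array the adjusted p was 0.0264, and with the compared conditions alone 0.0291, against the same 7.58% and 7.2% of all probe sets. Its value of 3 h S over FN was -0.65 (SE 0.26, limma adjusted p = 0.250). That value was -0.19 when only experiment 2 supplied FN, and -1.12 when only experiment 1 did.

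*EXLB1* (AT4G17030) had nearly equal signals in FN in both experiments and higher ones in all other conditions. Its signals in FN, -S, 30' S and 3 h S were 126.2, 274.6, 257.1 and 327.7 in experiment 1, and 131.9, 227.7, 231.9 and 237.1 in experiment 2. Both FN arrays lay below all others, also after resupply. The log2 value was 0.88 (SE 0.16, 95% interval 0.50 to 1.26, limma adjusted p = 0.0574) in -S over FN, and 1.02 (SE 0.16, 95% interval 0.64 to 1.40, limma adjusted p = 0.0568) in 3 h S over FN. The resupply values were -0.03 (30' S over -S, 95% interval -0.41 to 0.35) and 0.15 (3 h S over -S, 95% interval -0.23 to 0.53). The limma adjusted p of 3 h S over FN was 0.0487 after quantile normalization (0.7% of all probe sets passed). The value was 0.86 with the FN array of experiment 1 left out and 1.19 with that of experiment 2 left out. In -S over FN the value was 0.71 and 1.04 without the one and the other.

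All 4 beta-expansins had a value above 0 in -S over FN, from 0.16 to 1.26, where 9677 of the 17138 probe sets tested did. Their median was 0.34 (0.05 over all probe sets), and none was called. *EXPB2* and *EXPB5* gave weak signals, and the 4 genes share the same 4 arrays, so that their values are not 4 independent observations. *EXPB3* (AT4G28250) had the largest value of all members. Its signals in FN, -S, 30' S and 3 h S were 45.1, 254.1, 360.5 and 364.8 in experiment 1, but 117.6, 158.5, 170.7 and 163.6 in experiment 2. The FN arrays were the lowest of both experiments and themselves differed 2.61-fold. The ratio of -S over FN was 5.63 in experiment 1 and 1.35 in experiment 2, and the fit gave 1.26 (SE 0.50, 95% interval 0.09 to 2.44, limma adjusted p = 0.214). The value of 3 h S over FN was 1.53 (SE 0.50, limma adjusted p = 0.194). These values rested on the FN array of experiment 1, which also stood apart from the other arrays. Without it *EXPB3* was at 0.25 in -S over FN and at 0.51 in 3 h S over FN. Without the FN array of experiment 2, which leaves the array that stood apart as the only FN array, the values were 2.28 and 2.55.

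*EXPB1* (AT2G20750) had its highest signal in -S in both experiments. It gave 35.8, 63.5, 36.6 and 47.9 in experiment 1, and 41.1, 54.7, 42.8 and 35.2 in experiment 2. Both -S arrays lay above all others. The log2 values were 0.46 (SE 0.17, limma adjusted p = 0.194) in -S over FN and -0.43 (SE 0.17, limma adjusted p = 0.999) in 30' S over -S. *EXPB2* and *EXPB5* were weak, with signals of 13.2 to 26.1 and 10.6 to 18.2. *EXPB5* stood at 18.2 and 15.3 in -S and at 12.6 and 13.3 in 30' S, a value of -0.18 (SE 0.14) in 30' S over -S, near the floor of these arrays.

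In -S over FN, 2 of the 8 alpha-expansins tested had a value above 0 and 6 below, with a median of -0.08. In 3 h S over -S all 8 lay above 0 (7885 of the 17138 probe sets tested did), with a median of 0.34 against -0.03 over all probe sets, and none was called. The values of 3 h S over -S ran from 0.01 (*EXPA16*) to 0.59 (*EXPA9*). For *EXPA16* the ratio was 0.923 in experiment 1 and 1.12 in experiment 2, and for *EXPA20* it was 1.36 and 0.873. For the other alpha-expansins tested the ratio was above 1 in both experiments, but *EXPA8* was under the floor in experiment 1. The 8 genes share the same 4 arrays, so that the 8 values are not 8 independent observations.

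*EXPA4* (AT2G39700) and *EXPA9* (AT5G02260) carried the largest of these values. *EXPA4* had signals of 76.4, 177.5, 340.5 and 347.0 in experiment 1 in FN, -S, 30' S and 3 h S, and 237.1, 228.9, 211.9 and 276.5 in experiment 2. The signal was thus lowest in FN in experiment 1 and nearly level in experiment 2, and the ratio of 3 h S over FN was 4.54 and 1.17. The fit gave 1.09 (SE 0.45, 95% interval 0.03 to 2.15, limma adjusted p = 0.258) for that comparison. This value was 0.26 when only experiment 2 supplied FN, and 1.92 when only experiment 1 did. *EXPA9* had signals of 46.5, 61.3, 71.8 and 109.7 in experiment 1, and 177.0, 117.2, 106.6 and 170.6 in experiment 2. The FN arrays differed 3.81-fold, while the step from -S to 3 h S was upward in both, with ratios of 1.79 and 1.46. Its value of 3 h S over -S was 0.59 (SE 0.27, 95% interval -0.05 to 1.24, limma adjusted p = 0.404). Without either FN array the adjusted p was 0.0338 (6.97% of all probe sets passed), and with the compared conditions alone it was 0.0435 (6.23%). In 3 h S over 30' S it was 0.56 (SE 0.27, limma adjusted p = 0.410), and 0.0398 was the adjusted p without either FN array (7.58%) and 0.0408 with the compared conditions alone (7.2%).

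*EXPA15* (AT2G03090) had signals of 53.3, 74.9, 106.3 and 114.6 in experiment 1, and 74.2, 65.7, 73.7 and 99.0 in experiment 2. The 3 h S arrays were the highest of each experiment, and the ratio of 3 h S over -S was 1.53 and 1.51. The log2 value was 0.51 (SE 0.21, 95% interval 0.02 to 0.99, limma adjusted p = 0.343). *EXPA8* (AT2G40610) was under the floor on all arrays of experiment 1, with 13.6, 4.1, 0.9 and 6.3. In experiment 2 it was above the floor, with 40.4, 24.8, 28.0 and 28.0. FN was the highest condition in experiment 2, and the order in experiment 1 rests on signals under the floor. The value of -S over FN, which includes these signals, was -0.51 (SE 0.16, limma adjusted p = 0.158). It was -0.41 when only experiment 2 supplied FN, and -0.61 when only experiment 1 did. *EXPA16* gave 10.6 to 20.3 and *EXPA20* 23.6 to 32.4, with values of -S over FN of -0.05 (SE 0.20) and -0.02 (SE 0.16).

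*EXPA7* (AT1G12560) and *EXPA18* (AT1G62980) are expressed in root hair cells and act in the growth of root hairs. *EXPA7* had signals of 51.1, 60.8, 68.8 and 69.8 in experiment 1 in FN, -S, 30' S and 3 h S, and 135.6, 97.2, 137.2 and 150.9 in experiment 2. *EXPA18* had 90.5, 79.0, 64.6 and 97.6 in experiment 1, and 122.7, 92.0, 119.1 and 124.8 in experiment 2. All signals of *EXPA7* in experiment 2 lay above all of experiment 1, and the 4 conditions overlapped. The values of -S over FN were -0.11 (SE 0.17, 95% interval -0.53 to 0.30) for *EXPA7* and -0.26 (SE 0.17, 95% interval -0.66 to 0.14) for *EXPA18*. In 3 h S over -S both were positive, at 0.36 (SE 0.17, limma adjusted p = 0.430) and 0.32 (SE 0.17, limma adjusted p = 0.474).

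**Figure D3:**
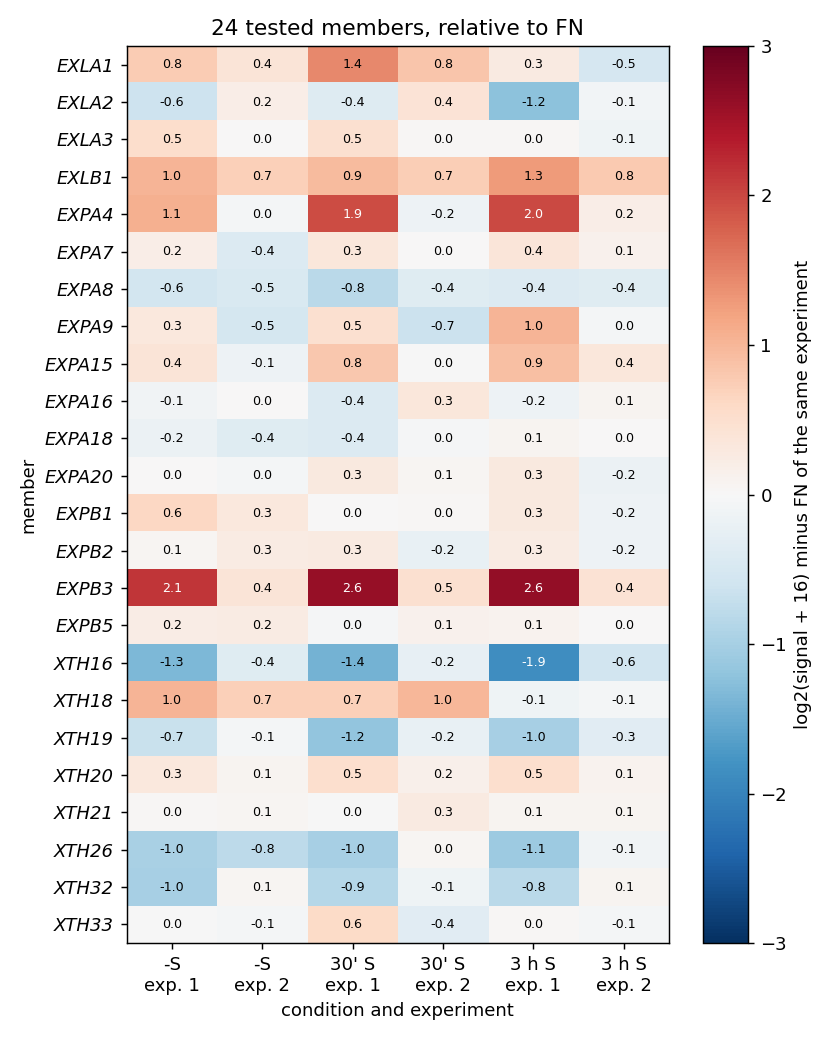
Difference of log2(signal + 16) from the FN array of the same experiment (colour and printed value, log2 units) for the 24 tested members (rows) in each condition and experiment (columns). *EXPB3*, *EXPA4* and *XTH16* have much larger differences in experiment 1 than in experiment 2, while *EXLB1* and *XTH18* are alike in both.

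The share of members with signals more than 2-fold apart between experiments was above that of all probe sets tested in each condition. This describes these 8 arrays and rests on 3 to 6 of 24 members. They include *EXPA8* in all 4 conditions and *XTH26* in -S, 30' S and 3 h S. In experiment 1 these signals were under the floor, where ratios are imprecise. Signals of the same condition differed more than 2-fold between experiments for 5 of 24 members in FN (20.8%, against 12.5% of all probe sets), 3 in -S (12.5% against 7.54%), 4 in 30' S (16.7% against 6.55%) and 6 in 3 h S (25.0% against 7.05%). In FN the 5 were *EXPA4*, *EXPA7*, *EXPA8*, *EXPA9* and *EXPB3*, of which 4 are alpha-expansins, and each was higher in experiment 2. The ratios of experiment 2 over experiment 1 in FN ran from 2.61 (*EXPB3*) to 3.81 (*EXPA9*). In -S over FN, *EXPA4* had ratios of 2.32 in experiment 1 and 0.965 in experiment 2, and *EXPA9* of 1.32 and 0.662, opposite in sign on the log scale.

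**Figure D4:**
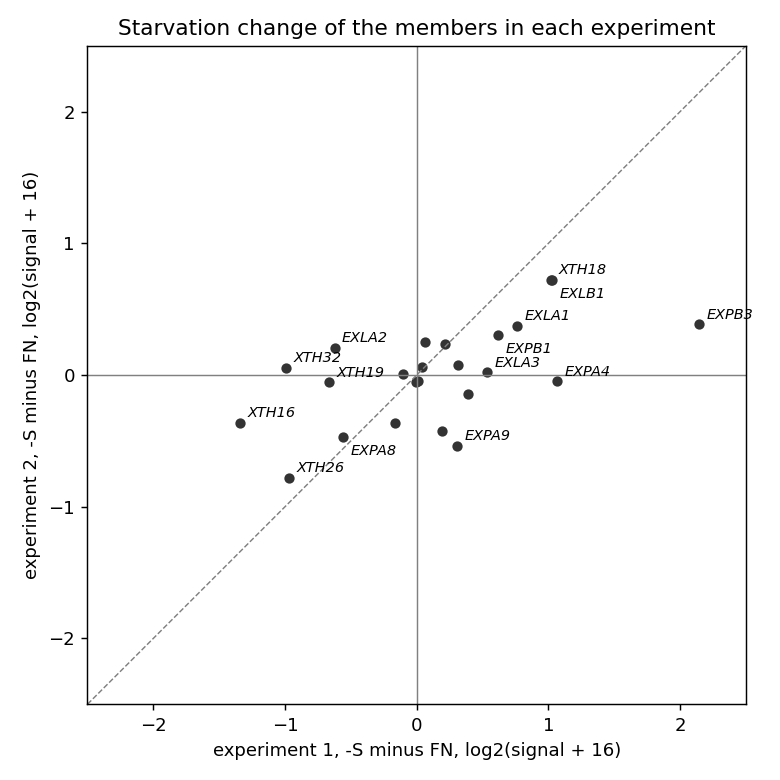
Difference of log2(signal + 16) between -S and FN in experiment 1 (x axis) and experiment 2 (y axis) for the 24 tested members, with the line of equal values dashed and names where either difference exceeds 0.5. *EXLB1*, *XTH18* and *XTH26* lie near the line, whereas *EXPB3*, *EXPA4*, *XTH16* and *XTH32* lie toward the x axis, with larger differences in experiment 1.

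Sorted by which arrays stood apart, 3 of 24 members (*EXLA1*, *EXLA3* and *XTH18*) had both -S and both 30' S signals above all FN and 3 h S signals, where 6.1% of all probe sets tested did, and 0 had the opposite order (5.44%). Both FN signals were below all others in 2 members, *EXLB1* and *EXPB3* (10.0% of all probe sets), and above all others in 2, *XTH16* and *XTH19* (8.43%). Both 3 h S signals were below all others in 1 member, *XTH18* (4.13%), and above all others in 0 (6.36%). These orders were chosen after the signals were seen. The shares of members lie near those of all probe sets or differ from them by 1 or 2 genes.

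Other genes of wall building and growth control were followed through 11 lists with 134 genes, of which the annotation named 16 and 15 could be tested. None was called in any comparison. In 6 of the 15, both -S and both 30' S signals lay above all FN and 3 h S signals, as in *XTH18* and *EXLA1* (6.1% of all probe sets). The 6 were *COB*, needed for oriented cellulose deposition, *IRX10* of xylan synthesis, *CSLC5* of xyloglucan backbone synthesis, the wall-sensing receptor kinase *THE1*, the secreted signal peptide gene *RALFL33* and the gibberellin receptor gene *GID1B*. They were singled out after their values were seen, by an order taken from the members. *IRX10* met it narrowly, with 70.3 in -S against 68.9 in 3 h S in experiment 1. So did *THE1*, with 174.8 in -S of experiment 2 against 170.1 in FN of experiment 1. For *GID1B* it was 205.4 in -S of experiment 2 against 201.2 in 3 h S of experiment 1. The margin was also narrow in *RALFL33*, and wider in *COB* and *CSLC5*. *RALFL33* had signals of 387.5, 520.5, 658.3 and 324.3 in experiment 1 in FN, -S, 30' S and 3 h S, and 323.3, 396.7, 463.8 and 279.4 in experiment 2. Its log2 value in 3 h S over 30' S was -0.84 (SE 0.14, limma adjusted p = 0.0663), and like *EXLA1* it was highest in 30' S and next in -S. The auxin-conjugating enzyme gene *GH3.3* came closest to a call in -S over FN among these genes, with -0.79 (SE 0.16, limma adjusted p = 0.078).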

How the data were processed

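The 8 samples are RNA of Arabidopsis seedlings on ATH1 arrays, grouped by the condition and experiment in their labels. The deposited values are intensity signals of MAS version 5.0, which the authors scaled per array and left on a linear scale, 1 column per array. No source used here gives the scaling target. The floor of an array is the signal at the absent share that the study states for it. Such scaling sets a common level for each array, so only relative levels are compared, and signals near the floor are imprecise.

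The members and lists were chosen with earlier results of these data known. Probe sets were named by the platform annotation (13513 with 1 gene, 503 with several, 8730 not named here), with 67 genes of these families in RefSeq. Values were printed for the 3 largest differences in each direction per comparison with the same sign in both experiments, the 3 members with the highest mean signal per family, and *EXPA7* and *EXPA18*. *EXPA20*, *EXPB2* and the other members are given by range, and *XTH32*, *EXLA3* and the genes outside the families were added after their values were seen.

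limma 3.58.1 in R 4.3.3 fitted condition and experiment to log2(signal + 16), without a trend, to the 17138 probe sets that reached the floor on 2 arrays or more (5608 were left out). The fit had 3 residual and 4.0 prior degrees of freedom, and p-values were adjusted by the Benjamini-Hochberg method over all probe sets tested. Fold changes are on the log2(signal + 16) scale, which understates those of weak signals. Where both arrays of a condition were under the floor, the fold was set against the floor. The fold rule used the ratio of signals in each experiment, past 2-fold or under 0.5-fold in both, and required the condition with more signal to reach the floor. The methods' test was a heteroscedastic two-sided Student's test per probe set on the log2(signal + 16) values. Scripts were tested on simulated data, and Python 3.11.15 with numpy 2.4.6, pandas 2.3.3 and scipy 1.17.1 gave the tables, and matplotlib 3.10.9 the figures.

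The experiment is a block because the study forms its ratios within experiments. As a check, probe sets' differences between the experiments were correlated for each pair of conditions, giving r = 0.60 to 0.71 among the 3 starved or resupplied conditions and 0.08 to 0.31 between FN and these. Alternatives were no block, an offset of 1, no filter, a fixed floor of 20, quantile normalization, median centring, the compared conditions alone, the methods' test, no floor in the fold rule and leaving out each array. Protein and promoter sequences were not used here.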

Additional observations from a re-analysis of the deposited data

How the results depend on the processing

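Counts of members called were 0 in every comparison and remained 0 without the replicate block, where 119 probe sets passed in -S over FN instead of 243, 77 instead of 182 in 3 h S over -S, 22 instead of 96 in 3 h S over FN and 31 instead of 94 in 3 h S over 30' S. They were also 0 with an offset of 1, without the filter, with a fixed floor of 20 and after median centring. In -S over FN, 0.852, 0.488, 1.52 and 1.43% of all probe sets passed there in the same order, so that 0 members do not show stability. The methods' test called 0 of the 17138 probe sets in every comparison after adjustment, so that its 0 members carry no information. With the compared conditions alone, 1 member was higher and 2 lower in 3 h S over -S (4.28% and 1.95% of all probe sets), and 1 was higher and 3 lower in 3 h S over 30' S (4.22% and 2.98%). Quantile normalization gave 1 member higher in 3 h S over FN (0.496%) and 1 lower in 3 h S over 30' S (0.239%). When 1 array was left out, the number of members called ranged from 0 to 6 higher and 0 to 6 lower in -S over FN, from 0 to 1 higher and 0 to 2 lower in 3 h S over -S, from 0 to 5 higher and 0 to 5 lower in 3 h S over FN, and from 0 to 1 higher and 0 to 3 lower in 3 h S over 30' S. The highest counts against FN came without the FN array of experiment 2, where 28.4% of all probe sets passed in either direction in -S over FN and 27.1% in 3 h S over FN. The cause was not tested. Those of the resupply comparisons came without either FN array, where 4.67% were higher and 2.3% lower in 3 h S over -S, and 4.53% and 3.05% in 3 h S over 30' S.

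The values of the named members were recomputed in 479 alternatives over 30 results. In 441 the direction and the side of the threshold stayed, in 36 the value passed the threshold, and in 2 the direction turned: *EXPB3* in 30' S over -S ranged from -0.12 without the 30' S array of experiment 1 to 0.70 without that of experiment 2, and *EXPA15* in 3 h S over 30' S from -0.0042 without the 30' S array of experiment 2 to 0.46 without that of experiment 1. The 30 results had been chosen for the same sign in both experiments, and none was called in the main fit, so that these counts do not measure stability. A value counted among the 441 could still move far, as for *EXPB3* in -S over FN (1.26, and 0.25 without the FN array of experiment 1). The methods' test called no probe set, and most of the 36 came from fits with 1 FN array. Among these, a resupply result was counted once for each FN array left out, although both fits are the same. The number of arrays and the signals near the floor limit what can be seen, above all for *EXLA3*, *EXPA8*, *EXPA16*, *EXPB5* and *XTH26*.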
